A study of Arabidopsis thaliana with 18 samples.

Results

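Arabidopsis seedlings that lack both arginyl transferases were compared with their wild type while both stood in normal air. The data were 4 of the 18 arrays of the series, chosen by their titles: the 2 ate1 ate2 and the 2 Col-0 seedling arrays in air. Col-0 is the common laboratory accession, used here as wild type, and ate1 ate2 carries mutations in both arginyl transferase genes. Plants were 7 days old, had been stored as seeds in the cold for 3 days, and grew upright on medium with 1% sucrose at 23 °C with 16 h of light a day. At the end of the light period they were kept in air, in dim light, for 2 h, and whole seedlings were frozen. Groups used for comparison were the ate1 ate2 and Col-0 seedlings given 2 h of argon (99.995%), which is the hypoxia treatment, and seedlings in air of prt6-1, a single mutant of the E3 ligase gene PRT6. Every group held 2 replicate arrays, described by the submitters as independent biological replicate experiments.

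Arginyl transferases attach arginine to the exposed amino end of certain proteins. The E3 ligase PRT6 recognises such ends and marks the protein for breakdown by the proteasome, a route called the Arg/N-end rule pathway. In Arabidopsis its best known substrates are the group VII ethylene response factors, transcription factors that switch on genes of low-oxygen metabolism. Their amino end has to be oxidised before it can be arginylated, so in normal plants they last when oxygen is scarce. The comparison asks which transcripts differ in a plant without arginylation when oxygen is plentiful.

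A value is the log2 RMA signal of a probe set (RMA is the summarisation step that turns an array's probes into 1 value per transcript probe set), and a difference of 1 is a 2-fold change. Replicate arrays correlated at 0.995 for ate1 ate2 and 0.996 for Col-0 in air over 22746 probe sets. Transcripts of green tissue were at the top of the scale in all 4 arrays, RCA (Rubisco activase) at 14.32 to 14.37 and LHCB4.1 (a light-harvesting protein) at 13.64 to 13.81. Most seed storage and oil body transcripts were near the bottom, with list medians of 4.48 to 4.91. Whole seedlings mix many cell types, and in such samples fewer cells of a type and less RNA per cell cannot be told apart. The probe sets of ATE1, ATE2, PRT6 and the group VII factors had no single gene name in the annotation used and were not analysed here, so the mutations were not checked at the mutated genes. The 3 measured genes of N-end processing were not called. AT2G41760 read 7.92 and 8.07 in Col-0 and 7.87 and 8.05 in ate1 ate2, MAP1A (a methionine aminopeptidase) differed by 0.08 and AT2G44420 by -0.10.

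In ate1 ate2 seedlings in air, 475 of 22746 probe sets were higher than in Col-0 (2.09%) and 368 were lower (1.62%), at an adjusted p under 0.05 by limma. The sizes were uneven. A rise of at least 1 log2 unit was called for 113 probe sets and a fall of that size for 30, and beyond 2 log2 units there were 35 rises and 1 fall. The median called rise was 0.69 and the median called fall -0.59. Of the calls, 225 rises and 198 falls belonged to probe sets with exactly 1 gene, and only those are named. Probe sets were split into 3 equal classes of 7582 by their Col-0 level in air. The dim class (signal 3.04 to 5.39) had 78 rises and 21 falls, the middle class 248 and 192, and the bright class (7.91 to 14.43) 149 and 155.

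The counts depended on single arrays. Without Col-0 replicate 1 they were 228 higher and 134 lower, and without ate1 ate2 replicate 2 they were 277 and 157. Calls made whichever of the 4 arrays was left out numbered 187 rises (39.4% of 475, 0.822% of all probe sets) and 70 falls (19.0% of 368, 0.308%). All named genes of the largest rises and falls come from these.

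**Figure D1:**
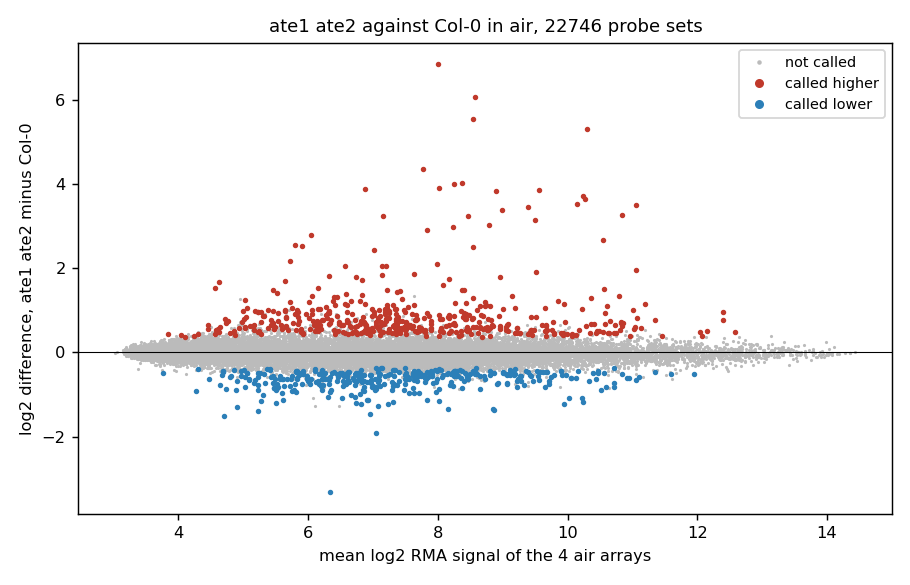
Each point is 1 of 22746 probe sets, with the mean log2 signal of the 4 air arrays across and the log2 difference of ate1 ate2 minus Col-0 upwards; colours mark the 475 called rises and 368 called falls. Rises reach 6.84 log2 units, while 1 fall lies beyond 2 units, at -3.32.

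The largest rise of all was in AT3G29970. It read 4.43 and 4.74 in the Col-0 arrays and 11.26 and 11.59 in the ate1 ate2 arrays. This is a transcript near the floor of the scale in wild type and strong in the mutant, a difference of 6.84 ± 0.13 (SE; 114-fold, adjusted p = 2.10e-13). AT4G39675 read 5.46 and 5.62 against 11.65 and 11.58, a 67.3-fold difference. AT2G17850 read 5.55 and 6.01 against 11.35 and 11.29, a 46.6-fold difference. In each of these the genotypes stood far apart and the replicates close together.

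ICL, isocitrate lyase, is an enzyme of the glyoxylate cycle, which lets germinating seeds turn stored fat into sugar. Its signal was 7.27 and 8.02 in Col-0 and 12.99 and 12.94 in ate1 ate2. The groups stood far apart although the Col-0 arrays differed by 0.75 (difference 5.31 ± 0.20, 39.7-fold, adjusted p = 2.06e-10). Only 3 of 19 listed genes of fat breakdown and the glyoxylate cycle were measured, and those besides ICL did not follow. AIM1, of fatty acid beta-oxidation, differed by 0.01 and SDP1, a triacylglycerol lipase, by -0.19, and neither was called. ICL was also the only one of the 4 largest rises that is not on the core hypoxia list, and its hypoxic Col-0 arrays, at 8.32 and 7.86, overlapped those of Col-0 in air (adjusted p = 0.459).

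AT1G19530 read 4.99 and 6.19 in Col-0 and 10.01 and 9.89 in ate1 ate2. Its Col-0 arrays differed by 1.20, the widest such gap among the 16 genes, against a genotype difference of 4.36 ± 0.26. CML38, a calmodulin-like calcium sensor, read 5.03 and 4.86 against 8.86 and 8.77, a 14.6-fold rise. AT1G33055 went from 6.58 and 7.38 to 10.83 and 10.80, a 14.3-fold rise. AT3G03270, a universal stress protein gene, was already moderate in Col-0 at 8.28 and 8.50 and reached 11.96 and 12.23, a rise of 3.71 ± 0.12. For these genes as for the rest, no ate1 ate2 array overlapped a Col-0 array.

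Smaller rises followed. AT5G66985 rose by 3.39, AT4G27450 by 3.27 and AT4G24110 by 3.24. AT4G33560 and AT4G10270, which belong to a wound-responsive family, rose by 3.23 and 3.02. AT4G10270 read 7.33 and 7.24 in Col-0 and 10.29 and 10.31 in ate1 ate2. AT3G27220 rose by 2.90, AT4G14980 by 2.56 and AT5G10040 by 2.53. Across the 16 genes of largest rise the ate1 ate2 replicates differed by at most 0.58, and the adjusted p lay between 2.10e-13 and 1.39e-07.

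**Figure D2:**
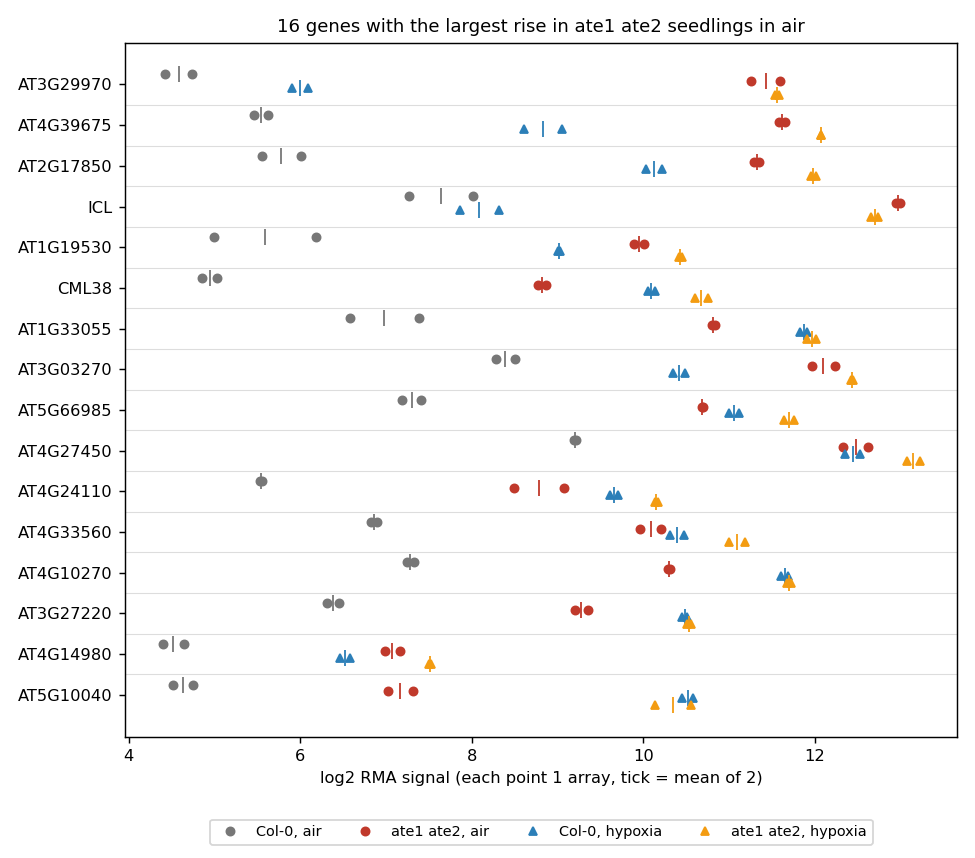
Log2 signal of the 16 genes with the largest rise, 1 point per array and a tick for the mean of 2 arrays, in Col-0 and ate1 ate2 in air (circles) and under hypoxia (triangles). In every row both red circles (ate1 ate2 in air) lie right of both grey circles (Col-0 in air); 7 of the 16 rows have both red circles right of both blue triangles (Col-0 under hypoxia), and 8 have them left.

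All but 2 of these 16 genes, ICL and AT4G14980, are on the list of core hypoxia-responsive genes, transcripts that rise in low oxygen across cell types. Of 54 listed genes 29 were measured. In air 21 of the 29 were higher in ate1 ate2 and none was lower, where 2.09% of all probe sets were called higher. This list, like the others, was chosen with earlier results of these data known, so its share is a description and not a test. The list's median difference was 2.04, against -0.01 over all probe sets. The count was 19 or 20 with any 1 of the 4 arrays left out. The list's median signal was 6.83 and 7.24 in the Col-0 arrays and 9.20 and 9.31 in the ate1 ate2 arrays.

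Further members rose by less. AT3G10040 (HRA1, hypoxia response attenuator1, a transcription factor that restrains the hypoxia response) read 5.90 and 6.32 in Col-0 and 8.07 and 8.24 in ate1 ate2, a rise of 2.04 ± 0.13. AT1G26270 rose by 1.11, AT3G23170 by 1.07 and AT1G74940 by 1.02, each without overlap between the genotypes. AT2G15880 rose by 0.75 and AT5G44730 by 0.53. PDC2, a pyruvate decarboxylase of ethanol fermentation, read 9.39 and 8.96 against 9.80 and 9.61, a rise of 0.53 (adjusted p = 0.0395). It was not called without Col-0 replicate 2, where it was 0.32, nor without either ate1 ate2 array, where it was 0.44 and 0.63. On the fermentation and sucrose list only 4 of 15 genes were measured, so most of it was not seen. Of these 4, PDC2 and AT4G17260 were higher, where 2.09% of all probe sets were, and the median was 0.46.

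The other 8 members were not called and differed by -0.26 to 0.24. In 5 of them both ate1 ate2 air arrays lay below both hypoxic Col-0 arrays. FHL read 5.17 and 5.28 in Col-0 in air, 5.48 and 5.46 in ate1 ate2 in air and 6.42 and 6.48 in hypoxic Col-0. AT5G26200, a mitochondrial carrier gene, read 8.96 and 8.96, then 9.14 and 9.23, then 10.24 and 10.50. AT5G42200 read 7.27 and 7.27, then 7.39 and 7.38, then 9.01 and 8.81. All 5 were called lower than in hypoxic Col-0 in the direct comparison given next, by differences of -1.52 to -0.59.

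Mutant seedlings in air were set against wild-type seedlings under hypoxia, a comparison in which 617 probe sets were higher (2.71%) and 910 lower (4.0%), and 5 of the 29 core genes were higher and 17 lower, with a median of -0.67. The higher group was AT3G29970, AT4G39675, AT3G03270, AT2G17850 and AT1G19530. AT3G29970 read 5.91 and 6.09 in hypoxic Col-0, itself a called rise of 1.42 over Col-0 in air, and the mutant in air was 5.42 above that level (adjusted p = 5.62e-12). AT4G39675 was 2.78 above, and AT3G03270 1.68. At the other end, AT5G10040 read 7.02 and 7.31 in the mutant in air and 10.58 and 10.45 in hypoxic Col-0, a difference of -3.35. AT3G23170 differed by -3.12 and AT3G10040 by -2.93. The arrays of AT4G27450 overlapped, at 12.33 and 12.62 against 12.35 and 12.53. Centring each array on its median moved the share of higher calls in this comparison over all probe sets from 40.4% to 55.7%.

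The genotype comparison was repeated in the hypoxia arrays. Its mean differences share no array with those in air. Calls in both conditions rest on the same estimate of the spread, taken from all seedling arrays, so they are not independent of each other. Under hypoxia 252 probe sets were higher (1.11%) and 344 lower (1.51%) in ate1 ate2. Called in both conditions were 163 rises, which is 34.3% of the rises in air and 64.7% of those under hypoxia, and 113 falls, 30.7% and 32.8%. Of the 475 rises in air 420 had a positive difference under hypoxia (88.4%, against 44.5% of all probe sets). Of the 368 falls 338 had a negative one (91.8%, against 55.5%). Among the calls that held with any array left out, 115 of 187 rises (61.5%) and 50 of 70 falls (71.4%) were called again.

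For core hypoxia genes the genotype difference was mostly smaller under hypoxia, with a median of 0.09 against 2.04 in air. It was not gone. Of the 29, 9 were higher in hypoxic ate1 ate2, where 1.11% of all probe sets were. PDC2 was the 1 called lower, where 1.51% of all probe sets were. AT4G10270 read 11.69 and 11.61 in hypoxic Col-0 and 11.68 and 11.72 in hypoxic ate1 ate2, with overlap. AT3G27220 differed there by 0.06. PDC2 read 10.98 and 10.95 in hypoxic Col-0 and 10.33 and 10.31 in hypoxic ate1 ate2, the opposite order to that in air. The genotype effect under hypoxia minus that in air, tested as an interaction, was called negative for 18 of the 29 (67 of 22746 probe sets, 0.295%, were called in that direction). The 18 include PDC2, whose order reversed. Across all probe sets a negative value can also be a fall that grew under hypoxia. The interaction shares the air arrays with the rises themselves. Genes that kept a large gap under hypoxia were ICL (4.60, with 12.65 and 12.74 against 8.32 and 7.86), AT3G29970 (5.55) and AT4G39675 (3.24). The ICL interaction was -0.71 and was not called.

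**Figure D3:**
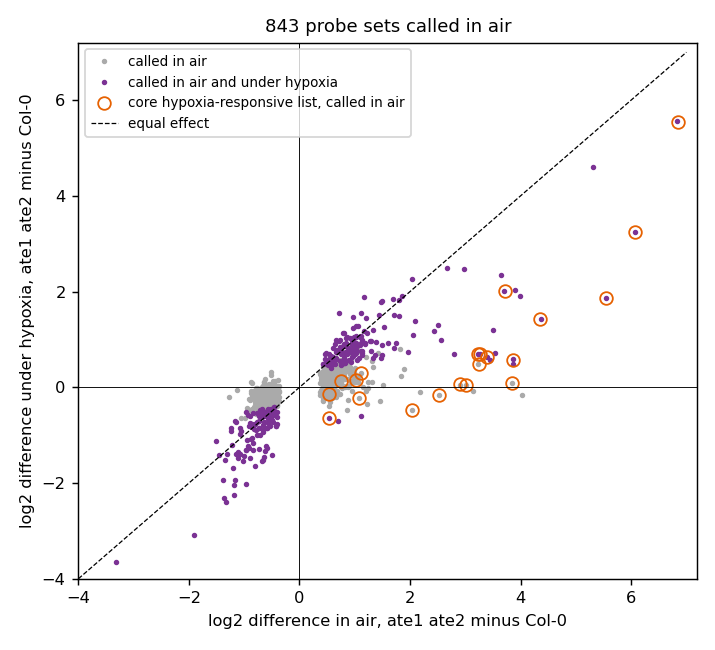
The log2 difference of ate1 ate2 minus Col-0 in air (across) and under hypoxia (upwards) for the 843 probe sets called in air, with purple for those also called under hypoxia, in either direction, and rings for the 21 called core hypoxia genes. The dashed line marks an equal effect; ringed genes lie below it, many of them near 0 on the upright axis, while most other points lie nearer the line.

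Falls were shallower. The largest fall with a gene name was in AT3G28220, at 8.05 and 7.34 in Col-0 and 6.16 and 6.30 in ate1 ate2, a difference of -1.46 ± 0.18 (2.76-fold lower, adjusted p = 0.000207). AT2G25890, on the seed storage and oil body list, read 5.77 and 6.06 against 4.73 and 4.34, a difference of -1.38 that was not called in a fit of all 18 arrays. AT2G33850 was tight in both groups, at 9.55 and 9.49 against 8.19 and 8.16. DELTA-VPE, the delta vacuolar processing enzyme, a protease of the inner seed coat, read 5.89 and 6.32 against 4.95 and 4.86. None of these genes showed overlap between the genotypes.

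Bright transcripts fell too. AT5G48490 went from 10.54 and 10.58 to 9.49 and 9.17, AT5G37990 from 10.96 and 10.70 to 9.70 and 9.59, and AT4G29030 from 10.50 and 10.62 to 9.33 and 9.65. AT4G28940 had the smallest adjusted p of the 12 largest falls, 9.38e-06, with 8.62 and 8.59 against 7.57 and 7.30. The rest were AT3G26460 (-1.19), AT4G14060 (-1.15), AT5G33370 (-1.12) and AT1G20390 (-1.06). Of the 12, 11 were called lower again under hypoxia, with differences of -2.25 to -0.86. The exception was AT1G20390, at -0.65 (adjusted p = 0.058). In all 12 both ate1 ate2 air arrays also lay below both hypoxic Col-0 arrays. The genes were chosen for low values in these same ate1 ate2 arrays. Hypoxia moved them little in Col-0, from -0.31 (AT4G29030) to 0.36 (AT3G26460), so this adds little.

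**Figure D4:**
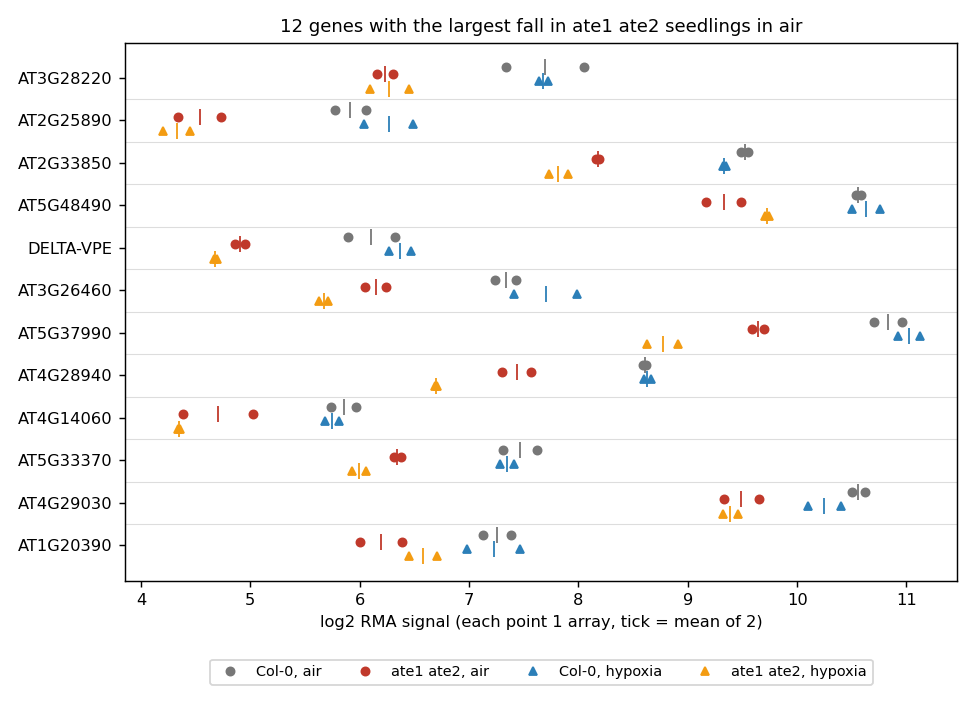
Log2 signal of the 12 genes with the largest fall, 1 point per array and a tick for the mean of 2 arrays, in Col-0 and ate1 ate2 in air (circles) and under hypoxia (triangles). Both ate1 ate2 groups lie left of both Col-0 groups in every row.

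Late embryogenesis abundant (LEA) proteins protect drying seeds. Of 18 measured LEA genes 2 were lower in ate1 ate2 in air, where 1.62% of all probe sets were, and none was higher. The list's median difference was -0.24. Most of these transcripts were dim, with a median level of 5.29 in Col-0 and 4.95 in ate1 ate2. Only 4 of the 18 passed the filter on the dimmest 33.3% of probe sets. The ate1 ate2 replicates disagreed on the genes that carried the fall. LEA18 read 6.50 and 6.98 in Col-0 and 6.55 and 4.41 in ate1 ate2, where the second array stood 2.14 below the first, and it was not called (adjusted p = 0.134). AtLEA4-1 read 6.18 and 6.17 against 5.58 and 4.54 a difference of -1.12 (adjusted p = 0.0171). AT3G15670 read 5.31 and 5.37 against 4.97 and 3.93. Without ate1 ate2 replicate 1, 5 LEA genes were lower and 1 was higher, and without replicate 2, or without either Col-0 array, none was called in either direction. Under hypoxia both mutant arrays were low (LEA18 4.54 and 4.73, against 7.06 and 7.24 in Col-0). There 7 of the 18 were lower, where 1.51% of all probe sets were.

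Of 22 listed seed storage and oil body genes 8 were measured. Of these, 2 were lower, AT2G25890 and AT2G28490, where 1.62% of all probe sets were. Both were lower in the hypoxia arrays as well. AT2G28490 read 4.48 and 4.98 against 3.88 and 3.74. AT4G36700 went the other way with disagreeing mutant arrays, at 5.62 and 5.87 against 6.02 and 7.31, and was not called. The list's median was -0.15. In the fit of all 18 arrays neither fall was called, though AT2G25890 still differed by -1.38. That fit adds arrays of seeds imbibed for 24 h to the estimate of the spread. The list's median signal was 8.92, 6.74 and 6.76 in the Col-0 seed arrays and 7.69, 8.05 and 8.09 in those of prt6-1.

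Anthocyanins are the red pigments of stressed or sugar-fed seedlings. Of 18 listed pigment genes 4 were measured. Of these, 3 were lower in ate1 ate2, where 1.62% of all probe sets were, with a median of -0.60. DFR, dihydroflavonol reductase, read 7.65 and 6.94 in Col-0 and 6.24 and 6.39 in ate1 ate2. AT5MAT, a malonyl transferase acting on anthocyanins, and AT4G14090 differed by -0.57 and -0.64. UF3GT, a glycosyltransferase of the same pathway, differed by -0.39 and was not called. Col-0 replicate 1 was the higher Col-0 array for all 4, by a median of 0.62. Without that array none of the 4 was called, without Col-0 replicate 2 all 4 were, and without either ate1 ate2 array none was.

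Of 20 genes on the root and root hair list 5 were measured, and 3 of these were higher in the mutant, where 2.09% of all probe sets were. All 5 lay above Col-0 without overlap, with a median of 0.65. EXPA7, an expansin of root hairs, read 6.91 and 7.12 against 7.90 and 8.07, a rise of 0.97 ± 0.11 (adjusted p = 0.000138). GH9C1, a cellulase of root hairs, rose by 0.75 and AT4G26010 by 0.65. GH9C1 was not called without Col-0 replicate 2 (0.66) or ate1 ate2 replicate 1 (0.69), nor AT4G26010 without Col-0 replicate 1 (0.53) or ate1 ate2 replicate 2 (0.60). In the fit of all 18 arrays only 1 of the 5 was called. EXPA18, another root hair expansin, differed by 0.58 and AT1G30870 by 0.54, neither called. Under hypoxia the same genes differed between genotypes by only -0.02 to 0.19, and none was called. The share of root tissue in each sample is not given in the labels, and its part in these differences was not tested.

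Cell wall enzymes moved in a few members. Xyloglucan endotransglucosylases cut and rejoin wall polymers, and 2 of 10 rose, where 2.09% of all probe sets did. XTH18 went from 8.26 and 8.25 to 9.06 and 9.66, and XTH33 from 6.71 and 6.69 to 7.45 and 7.89. Both were called higher under hypoxia too, by 0.76 and 1.47. The 2 ate1 ate2 arrays of XTH26 read 5.20 and 6.38 against 4.57 and 5.20 in Col-0, and it was not called. ATPMEPCRB, pectin methylesterase 41, read 5.83 and 5.84 against 7.33 and 7.94, a rise of 1.80 that was matched under hypoxia at 1.83. It was the only one of 4 pectin genes called. Among 19 expansins EXPA7 alone was called, and the median was 0.02.

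**Figure D5:**
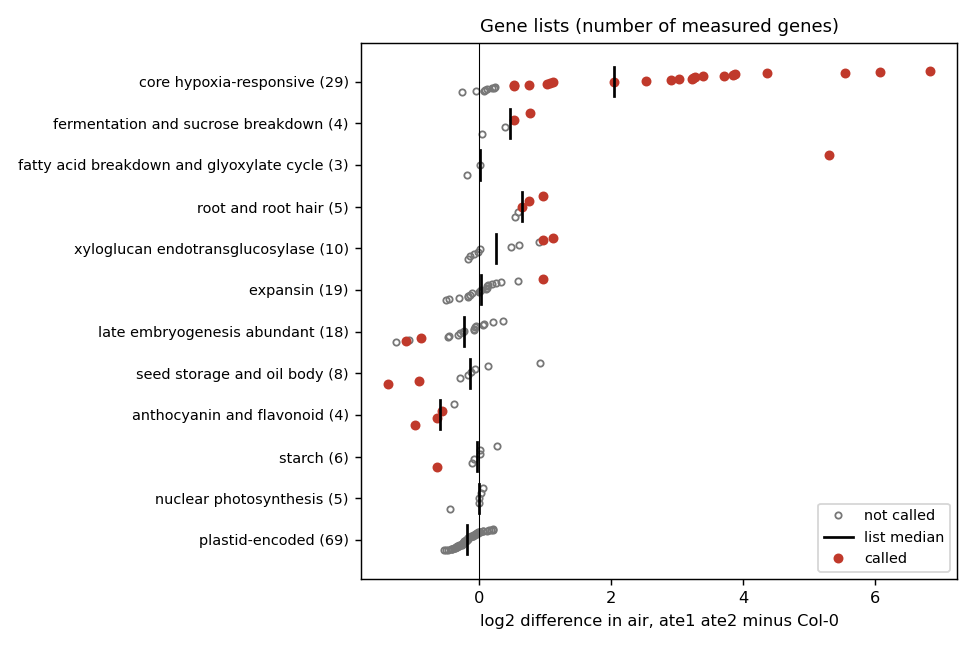
Log2 difference of ate1 ate2 minus Col-0 in air for each measured gene of 12 lists, filled where called, with a bar at the list median. The core hypoxia list (median 2.04) and the root list (0.65) have bars to the right, the anthocyanin list (-0.60) to the left, and the 69 plastid-encoded transcripts lie close together around -0.19.

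Photosynthesis transcripts gave no call. The 5 nuclear genes measured, of 38 listed, differed by -0.45 (LHCB4.2, adjusted p = 0.0544) to 0.06. Of 69 plastid-encoded transcripts none was called, with a median of -0.19 and 9 positive differences. Their median signal was 10.44 and 9.81 in the Col-0 arrays and 10.13 and 9.52 in the ate1 ate2 arrays. It was higher in replicate 1 than in replicate 2 of both genotypes, and lower in ate1 ate2 than in Col-0 at both replicate numbers, by differences of -0.31 and -0.29. The numbers were not taken to pair the arrays, and the genotypes overlapped: ate1 ate2 replicate 1 lay above Col-0 replicate 2. Without Col-0 replicate 1 their median difference was 0.04, and without Col-0 replicate 2 it was -0.41 with 9 called lower. Under hypoxia it was 0.14.

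Stress and metabolism lists held 1 or 2 calls or none, where 2.09% of all probe sets were called higher and 1.62% lower. COR15A, a cold-regulated chloroplast protein, was the 1 called gene of 4 on the abscisic acid and cold list, at 6.22 and 5.80 in Col-0 and 6.81 and 6.94 in ate1 ate2. Of 5 heat shock genes AT5G51440 rose by 1.01 and AT1G54050 fell by 0.50, the latter not called without Col-0 replicate 2 (-0.36) or either ate1 ate2 array. Of 6 starch genes QQS was lower, at -0.64, a call not made in any fit with 1 array left out. WRKY6, a transcription factor, was the 1 called of 7 WRKY genes, at 0.43, and was not called without ate1 ate2 replicate 2 (0.32) or either Col-0 array. Of 43 UDP-glycosyltransferases UGT71C2 rose by 0.46 and UGT88A1 fell by 0.49, and neither was called without ate1 ate2 replicate 2 or either Col-0 array. None of 24 cytochrome P450 or 12 glutathione S-transferase genes was called by limma; over the whole array 3506 probe sets lay under an unadjusted 0.05. The circadian clock, defence, senescence, ethylene and carbon starvation lists had 2 measured genes or fewer each and no call.

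The mutant was also set against prt6-1 in air, which lacks the ligase one step further down the pathway. These 4 arrays gave 15 higher (0.0659%) and 14 lower (0.0615%) probe sets by limma, with 1815 at an unadjusted p under 0.05. Without ate1 ate2 replicate 2 the counts were 55 and 37. None of the 29 core genes, of the 16 largest rises or of the 12 largest falls was among the calls. For AT3G29970 the prt6-1 arrays read 10.83 and 10.76, a difference of 0.63 from ate1 ate2 (adjusted p = 0.108), and for ICL 12.48 and 12.16, a difference of 0.64 (adjusted p = 0.384). Of the 16 genes 14 lay higher in ate1 ate2, by up to 0.67. They were chosen for large rises in these same ate1 ate2 arrays, which favours such a tilt. Differences that were not called do not show that the mutants are alike. AT2G33850 read 9.13 and 9.31 in prt6-1, between Col-0 and ate1 ate2, and differed from the latter by -1.04 (adjusted p = 0.083).

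Of the 29 probe sets called between the mutants, 17 were also called between ate1 ate2 and Col-0 in air and 12 were not. QQS, an Arabidopsis gene that affects starch content, read 10.71 and 10.92 in prt6-1, 5.47 and 5.36 in ate1 ate2 and 5.94 and 6.16 in Col-0. AT1G43590 read 8.13 and 8.22 in prt6-1 against 5.65 and 5.28 in ate1 ate2. AT5G05200 was low only in prt6-1, at 6.70 and 7.03, against 10.39 and 10.39 in ate1 ate2 and 10.45 and 10.22 in Col-0. The neighbouring loci EXPB3, an expansin, and AT4G28260 were both lower in prt6-1, by 1.32 and 1.38. Of these 5 named genes QQS was called between ate1 ate2 and Col-0, at -0.64, and the other 4 were not, with differences of -0.31 to 0.06.

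AT2G47780, COR15A and AT5G20790 were called in ate1 ate2 against Col-0 as well as against prt6-1. AT2G47780 read 5.21 and 5.90 in Col-0, 6.09 and 6.39 in prt6-1 and 7.68 and 7.51 in ate1 ate2, 1.35 above prt6-1 (adjusted p = 0.0213). COR15A read 5.65 and 5.25 in prt6-1, below Col-0, and was 1.43 higher in ate1 ate2 (adjusted p = 0.000445). AT5G20790 was intermediate, at 6.67 and 6.75 in Col-0, 8.55 and 8.58 in ate1 ate2 and 9.58 and 9.45 in prt6-1. NRPC1, a subunit of RNA polymerase III, and AT4G08780 were lower in ate1 ate2 than in prt6-1, with differences of -0.82 and -0.74, and neither was called against Col-0.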

How the data were processed

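Values are log2 signals that the authors deposited, 1 for each probe set on each array; RMA and affy are named per the submitters' processing notes, without versions. RMA makes the distributions of arrays alike, so a shift shared by most transcripts would be removed, and it is not stated whether seeds and seedlings were normalized together. Signal over background is not known, and 2 arrays per group limit the precision. The 64 AFFX controls among 22810 probe sets were dropped. Gene names from GEO's platform annotation, brought up to date with RefSeq's table for TAIR10.1, assigned 1 gene for 13513 probe sets, several for 503 and none for 8730. Probe sets without exactly 1 gene were counted but not named, and no coordinates or sequences are printed, since the array names no build.

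Groups came from the labels. The 12 seedling arrays were fitted as 6 group means with limma 3.58.1 in R 4.3.3 (lmFit, eBayes, no trend), so all groups share 1 estimate of the spread. P-values are two-sided, Benjamini-Hochberg adjusted over 22746 probe sets, and called under 0.05. The fit was tested on simulated data. The members and lists were chosen with earlier results of these data known, and lists are described by counts and medians, without tests of their own. Of 42 lists 28 had a measured gene, and the brightest probe set stood for a gene. Named genes were the 16 largest rises and 12 largest falls among single-gene calls that did not overlap and held with each of the 4 arrays left out; up to 4 called members of each list, or 2 as values where none was called; and 5 a direction in the other comparisons. Further list members were named after their values were seen. Alternatives were quantile renormalization, centring on array medians, a filter on the dimmest 33.3%, an intensity trend, only the compared arrays, all 18 arrays, a replicate block, an adjusted p under 0.01 and leaving out each array; list counts under these were added after seeing the data.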

Additional observations from a re-analysis of the deposited data

Results flagged for a closer look

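In 19 of the genes named by rule for the air comparison, the genotype effect differed between air and hypoxia, by limma's interaction term. Each value is the log2 effect (ate1 ate2 minus Col-0) under hypoxia minus that in air. Other called genes, such as ChiC (-0.85) and further core list members, were named outside that rule and are not among the 19. Because the term contains the air arrays with opposite sign, a gene chosen for a large rise in air is more likely to have a negative value, and no cause was tested. On the core hypoxia list the values were -1.28 for AT3G29970, -2.83 for AT4G39675, -3.68 for AT2G17850, -2.95 for AT1G19530, -3.29 for CML38, -3.75 for AT1G33055, -1.69 for AT3G03270 and -2.75 for AT5G66985. They were -2.57 for AT4G27450, -2.74 for AT4G24110, -2.52 for AT4G33560, -2.96 for AT4G10270, -2.84 for AT3G27220 and -2.69 for AT5G10040. AT4G14980, which is not on that list, had -1.57.

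PDC2 had -1.18, with a rise of 0.53 in air and -0.65 under hypoxia. COR15A had -1.34, with 0.86 in air and -0.47, not called, under hypoxia. EXPA7 had -0.82, with 0.97 in air and 0.15 under hypoxia. AT4G28940 was the 1 gene of the largest falls with a called interaction, at -0.77: its fall was larger under hypoxia (-1.94) than in air (-1.16).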

How the results depend on the processing

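The alternatives were applied to 106 results, each a named gene in 1 comparison, so a gene named in several comparisons counts more than once. Of the 1249 values, 1131 kept their direction and side of the threshold, 103 were no longer called and 7 became called. The 8 reversals were of uncalled genes near 0 with 1 air array left out. MAP1A ran from -0.03 (without Col-0 replicate 2) to 0.18, GI from -0.19 to 0.11 (without Col-0 replicate 2), LHCB4.1 from -0.01 (without ate1 ate2 replicate 1) to 0.12, EIN3 from -0.11 to 0.03 and WRKY53 from -0.06 to 0.46 (both turning without ate1 ate2 replicate 2), AQI from -0.08 to 0.01 (without Col-0 replicate 1), and CEG from -0.11 (without Col-0 replicate 2) to 0.14, with -0.00 without ate1 ate2 replicate 2.

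Counts of calls moved more. In air, 475 rises and 368 falls became 261 and 118 with only the compared arrays, 265 and 137 with all 18, 249 and 123 at an adjusted p under 0.01, and 228 to 534 and 134 to 401 with 1 array left out. Against prt6-1, 15 and 14 became 28 and 32 with an intensity trend, 7 and 8 with the compared arrays, 7 and 5 with all 18, 5 and 8 at 0.01, and 5 to 55 and 7 to 37 with 1 left out. Under hypoxia, 252 and 344 became 424 and 571, 129 and 160, 116 and 173 in the order of the air settings, and 95 to 140 and 134 to 180 with 1 left out. For ate1 ate2 in air against hypoxic Col-0, 617 and 910 became 394 and 558, 317 and 452, 305 and 387, and 295 to 583 and 323 to 753. Called interactions, 3 positive and 67 negative, became 6 positive with quantile renormalization, 5 with centring, 1 with the compared arrays, 1 and 43 with all 18, 0 and 39 at 0.01, and 0 to 23 and 41 to 111 with 1 left out. The core list's count of 21 was 19 to 20 with 1 left out, and 18 members were called whichever array was left out. The cause of these changes was not tested.

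The replicate numbers were not taken to pair the arrays, since 7 of 15 same-number correlations, not all, exceeded 0.1 (-0.234 to 0.262; 0.172 between Col-0 and ate1 ate2 in air). With the replicate block the counts were 581 and 474 in air, 18 and 16 against prt6-1, 303 and 405 under hypoxia, 719 and 1063 against hypoxic Col-0, and 7 and 72 for the interaction, with 21 on the core list.

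With 2 arrays a group, small changes and dim transcripts are poorly resolved, and 8730 probe sets carry no gene name here.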

Other observations

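Genes with a symbol of their own, rather than a locus code, that were called in air with any array left out numbered 23, of which 20 were higher and 3 lower in ate1 ate2; this set was chosen after the data were seen. LBD16, a transcription factor of lateral root formation, read 5.83 and 5.97 in Col-0 and 7.08 and 7.49 in ate1 ate2. GH3.3, an enzyme that couples auxin to amino acids, rose by 1.12, and ARL, a gene of cell expansion, by 1.48. All 3 were called higher under hypoxia as well, by 0.94, 1.07 and 0.62. The set also held TIL, a temperature-induced lipocalin (10.61 and 10.40 against 11.54 and 11.48), and CP1, at 1.47. ChiC rose by 0.87 in air and differed by 0.02 under hypoxia. UGT76B1, a glycosyltransferase of defence signalling, rose by 0.80. The lower genes were DELTA-VPE, BGLU33, a beta-glucosidase, at -0.90, and CLE26, a signal peptide gene, at -0.72, which was not called in the fit of all 18 arrays.

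The largest fall of all belonged to a probe set with no gene name in the annotation used, 250754_at. It read 7.95 and 8.06 in Col-0, 7.98 and 8.15 in prt6-1 and 4.89 and 4.47 in ate1 ate2 in air, and 8.05 and 8.05 in Col-0 and 4.47 and 4.32 in ate1 ate2 under hypoxia. It was low in all 4 ate1 ate2 arrays and in none of the other 8 seedling arrays, with a difference of -3.32 in air (adjusted p = 3.13e-10) and -3.38 from prt6-1 (adjusted p = 1.72e-09). Unnamed probe sets made up 243 of the 475 rises and 165 of the 368 falls, among them 253416_at (4.03) and 265948_at (3.99). Called rises covered 1.38% to 2.24% of the single-gene probe sets of each chromosome, and called falls 1.27% to 1.71%.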
